A study of Mus musculus with 4 samples.

Results

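Type I interferon response genes are the targets that a cell switches on when interferon alpha or beta binds its receptor. The 35 genes described here were listed by symbol as interferon-stimulated genes, and all 35 were found among the 27998 genes of the deposited matrices. They were followed in single microglia, the resident macrophages of the brain, of C57BL/6 mice whose whole brain received 8 Gy in 1 exposure at postnatal day 21. The 4 groups compared were sham controls (SH) at 6 h, irradiated mice (IR) at 6 h, SH at 1 week and IR at 1 week. Each group was 1 droplet library (10x Genomics Chromium) pooled from 4 mice, the labels give the age as P21 for every library, and nothing used here states the animals' sex, the dissociation or the sorting. The labels name brain as the source while the design text speaks of the hippocampus, and its stated question was whether responding genes are expressed together in the same microglia.

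Cells detect foreign nucleic acid with sensors that drive the transcription of interferon. Secreted interferon then acts through the receptor chains Ifnar1 and Ifnar2, the kinases Jak1 and Tyk2, and a transcription factor complex that includes Stat2 and Irf9. That factor binds the interferon-stimulated response element upstream of its target genes. The targets include the sensors and signalling factors themselves, proteins that bind or degrade viral RNA, the ubiquitin-like modifier Isg15, and membrane proteins that block entry or release of virus. In microglia these genes are known to be active at a low level in the healthy brain and to rise in a subset of cells in infection, injury and ageing.

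The upstream sequences of 6 members are shown because the response element is the sequence these genes are known to share. All 6 hold the letters searched for, so they do not stand for the members without them. The letters GAAA, any 2 bases and GAAA again, read on either strand, were searched in the 250 bases before the RefSeq start of each gene, and matches are in capitals. Each stretch runs 5′ to 3′ along the gene, with the coordinates of build GRCm38.p6.
Ifit1, chr19:34640775-34640888, + strand: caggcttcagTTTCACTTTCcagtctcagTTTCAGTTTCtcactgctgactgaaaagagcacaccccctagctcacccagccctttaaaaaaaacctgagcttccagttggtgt
Ifit3, chr19:34583363-34583528, + strand: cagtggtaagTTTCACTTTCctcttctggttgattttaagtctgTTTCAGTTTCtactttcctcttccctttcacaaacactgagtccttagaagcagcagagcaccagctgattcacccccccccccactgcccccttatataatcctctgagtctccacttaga
Ifit3b, chr19:34607759-34607956, + strand: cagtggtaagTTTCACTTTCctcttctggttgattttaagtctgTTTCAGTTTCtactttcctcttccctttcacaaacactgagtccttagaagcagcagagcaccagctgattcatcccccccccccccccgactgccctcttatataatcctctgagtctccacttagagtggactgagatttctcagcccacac
Isg15, chr4:156200819-156200906, - strand: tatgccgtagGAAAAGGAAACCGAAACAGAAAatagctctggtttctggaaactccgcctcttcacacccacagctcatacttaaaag
Rsad2, chr12:26456453-26456582, - strand: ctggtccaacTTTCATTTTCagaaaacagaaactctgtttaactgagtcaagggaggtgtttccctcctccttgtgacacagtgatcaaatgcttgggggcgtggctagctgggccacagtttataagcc
Bst2, chr8:71537473-71537612, - strand: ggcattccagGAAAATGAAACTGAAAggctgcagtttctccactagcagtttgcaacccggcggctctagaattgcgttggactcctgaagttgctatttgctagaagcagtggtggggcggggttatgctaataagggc

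Of the 29 members with a promoter in the table, 13 held the motif in this window, or 44.8%. The share was 3.46% over all genes with a promoter there, or 936 of 27025 genes. The 13 were Stat2, Ifit1, Ifit3, Ifit3b, Oas1a, Isg15, Ifitm2, Bst2, Rsad2, Phf11b, Trim30a, Slfn5 and Slfn8. Irf7, Ifit2, Oasl1, Oasl2, Ifitm3 and Slfn2 were among the members with an entry and no match. The matches of Isg15 overlap one another, as do those of Bst2. Ifit3 and Ifit3b share an identical stretch of 169 bases in this window. A match is a description of the letters and not a measured binding site. Dhx58, Usp18, Mx1, Rtp4, Ifi27l2a and Parp14 had no entry.

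The 4 matrices held 8486 barcodes and 30600211 UMIs (unique molecular identifiers, each counting 1 captured transcript), of which 8324 cells were kept. Median depth per kept cell lay between 3430 and 3585 UMIs, a narrow range over the libraries. At least 4 of 9 microglia markers were detected in 98.9% to 99.9% of the cells of each library, and the library pairs shared between 4 and 12 cell barcodes. The p53 target Cdkn1a, which responds to DNA damage, had 508, 21585, 314 and 16931 UMIs in SH 6 h, IR 6 h, SH 1 week and IR 1 week, so it was high in the libraries labelled irradiated. All values below keep that order of the libraries. A level is the gene's UMIs over the kept cells per 1000000 UMIs of its library (CPM). A group of 1 library has no replicate error, so no test was made, and every interval covers counting error only. For genes whose UMIs sit in few cells these intervals are too narrow. Dissociation and library preparation cannot be told apart from the groups. A gene is called higher or lower from a 1.5-fold difference, among genes with at least 100 UMIs over the libraries. Of the members, 33 passed this filter, Cmpk2 and Ifi44 did not, and 9756 genes passed in all.

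The members were higher after irradiation at 6 h and, fewer of them, at 1 week, and they were lower in the later sham library than in the earlier one. At 6 h, 21 of the 33 members were at least 1.5-fold higher in IR than in SH, against 8.45% of all genes, and 0 were lower, against 9.37%. The median log2 fold of the members was 0.74, and that of all genes was -0.067. At 1 week 10 of 33 were higher, against 4.2% of all genes, and 1 was lower, against 3.55%. The median was then 0.21 for the members and 0.034 for all genes. From SH 6 h to SH 1 week 25 of 33 members were lower, against 5.05% of all genes, and 0 were higher, against 3.07%. All 33 members had a log2 fold below 0 in that comparison of shams, with a median of -0.82 beside -0.048 for all genes. The comparison of shams and the one at 6 h share the SH 6 h library, and the comparison of shams and the one at 1 week share the SH 1 week library.

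Summed over the 35 members, the libraries held 15022, 18894, 4547 and 8837 UMIs, or 1547, 2577, 814 and 1153 CPM. The order IR 6 h, SH 6 h, IR 1 week, SH 1 week, from high to low, was that of 20 of 33 members. IR 6 h held the highest level of 30 members, and SH 6 h that of Dhx58, Parp14 and Slfn8. The lowest level was in SH 1 week for 22 members and in IR 1 week for 11. Set against the sham of the other time, IR 6 h had 29 of 33 members higher, against 11.6% of all genes, and 0 lower, against 10.3%. IR 1 week had 0 of 33 members higher than SH 6 h, against 3.64% of all genes, and 23 lower, against 4.64%, and Bst2 and Slfn2 were the 2 members with a log2 fold above 0, at 0.23 and 0.015. The direction of the members at 1 week thus turned with the choice of sham, and the median between the shams was -0.82 where that after irradiation at 6 h was 0.74.

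**Figure D1:**
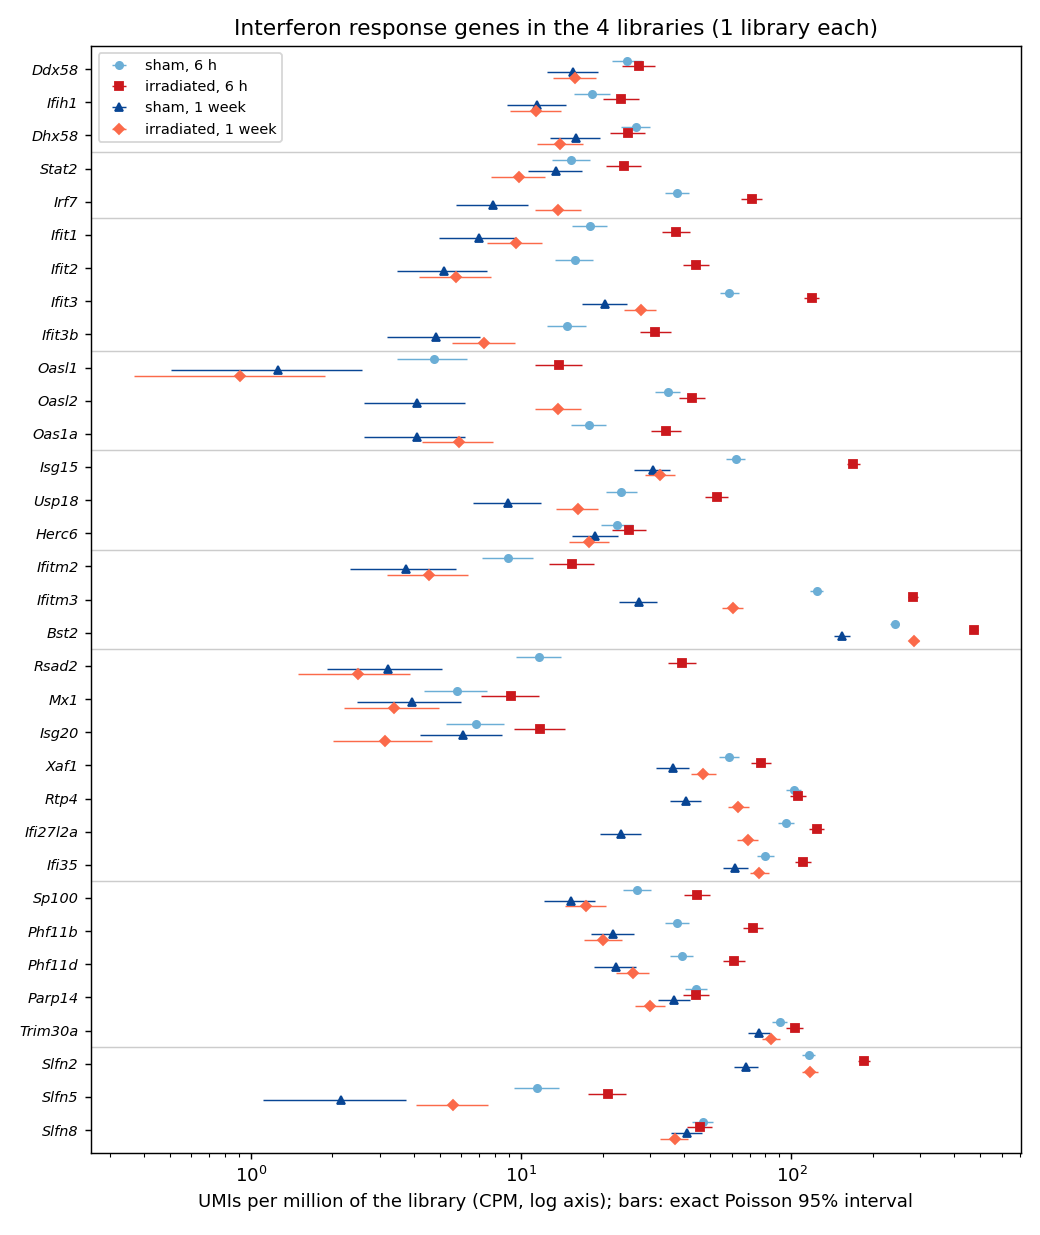
Level of each of the 33 members with at least 100 UMIs, in CPM on a log axis, with 1 point per library and bars for the exact Poisson 95% interval. Most red squares (irradiated, 6 h) lie farthest right, and the blue triangles (sham, 1 week) and orange diamonds (irradiated, 1 week) lie left of the 6 h points except for Bst2 and Slfn2, where irradiated at 1 week lies at or right of sham at 6 h.

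The cytosolic RNA sensors were within 1.5-fold with irradiation at both times. Ddx58, which encodes RIG-I, stood at 24.7, 27.3, 15.6 and 15.8 CPM. Ifih1, which encodes MDA5, stood at 18.3, 23.5, 11.5 and 11.4 CPM, and the regulatory sensor Dhx58 (LGP2) at 26.6, 24.8, 15.9 and 14.0 CPM. The log2 folds of the 3 ran from -0.098 to 0.36 at 6 h and from -0.19 to 0.020 at 1 week. All 3 were lower in SH 1 week than in SH 6 h, by log2 folds from -0.74 to -0.67.

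Irf7, the factor that amplifies interferon transcription, had 366, 522, 44 and 105 UMIs, or 37.7, 71.2, 7.88 and 13.7 CPM. It was high in both 6 h libraries and highest in IR. Its log2 fold was 0.92 (95% interval 0.72 to 1.11) at 6 h and 0.80 (95% interval 0.28 to 1.34) at 1 week. Between the shams it was -2.26 (95% interval -2.74 to -1.80), larger in size than either difference with irradiation. Stat2, the part of the interferon factor that carries its activating domain, stood at 15.3, 24.0, 13.4 and 9.79 CPM. It was higher at 6 h, with a log2 fold of 0.65, and not past the fold at 1 week (-0.46) or between the shams (-0.19).

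The IFIT genes encode proteins that bind viral RNA, and they lie side by side on chromosome 19 (Ifit2 at chr19:34550694-34576419, Ifit3 at chr19:34583531-34588731, Ifit3b at chr19:34607970-34613401 and Ifit1 at chr19:34640871-34650009, all on the + strand of GRCm38). All 4 were higher at 6 h, with a median log2 fold of 1.08. Ifit3 had 572, 870, 114 and 212 UMIs, or 58.9, 119, 20.4 and 27.7 CPM. IR 6 h stood above every other library, and the log2 fold was 1.01 (95% interval 0.86 to 1.17). Ifit2 stood at 15.8, 44.3, 5.19 and 5.74 CPM, with the widest step at 6 h among the 4, 1.49 (95% interval 1.21 to 1.78). Ifit1 stood at 17.9, 37.5, 6.98 and 9.53 CPM and Ifit3b at 14.7, 31.4, 4.83 and 7.31 CPM. Ifit3 and Ifit3b are near-identical copies, and reads of one can be lost or assigned to the other, so their split is uncertain. All 4 were lower in SH 1 week than in SH 6 h, with a median of -1.56.

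At 1 week only Ifit3b among the IFIT genes was past 1.5-fold, with a log2 fold of 0.60 (95% interval -0.091 to 1.32). These values rest on few cells. The 16 cells of SH 1 week with the most member UMIs, 1% of its cells, held 73.7% of the Ifit3 UMIs of that library, and the 22 such cells of IR 1 week held 56.1%. Without the 1% of such cells in each library, the log2 fold at 1 week was 1.19 for Ifit1, 0.91 for Ifit2 and 1.18 for Ifit3. The UMIs left in SH and IR were 8 and 25 for Ifit1, 7 and 18 for Ifit2 and 30 and 93 for Ifit3. The cells left out were chosen by the members' own UMIs and held a larger share of them in SH. That by itself raises these folds, so they are no separate measure of the other cells. Ifit3b was then left with 1 UMI in SH and 17 in IR. The 10 members past 1.5-fold higher with all cells remained past it, Slfn5 among them on 2 UMIs in SH and 35 in IR.

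The oligoadenylate synthetase family makes the messenger that activates the RNA-cutting enzyme RNase L. Oas1a, a synthetase, stood at 17.8, 34.4, 4.12 and 5.87 CPM. It was higher at 6 h, with a log2 fold of 0.95 (95% interval 0.66 to 1.24). Oasl1, an OAS-like protein known to limit Irf7 translation, had 46, 101, 7 and 7 UMIs, and its log2 fold at 6 h was 1.54 (95% interval 1.02 to 2.08). With 7 UMIs in each 1 week library, a difference for Oasl1 was not detectable there at this depth.

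Oasl2, the other OAS-like gene, had its wider step at 1 week. Its UMIs were 339, 315, 23 and 105, or 34.9, 43.0, 4.12 and 13.7 CPM. It was high in both 6 h libraries and lowest in SH 1 week. The log2 fold with irradiation was 0.30 (95% interval 0.074 to 0.53) at 6 h, under 1.5-fold, and 1.73 (95% interval 1.07 to 2.45) at 1 week. Between the shams it was -3.08 (95% interval -3.76 to -2.47), the largest difference of any member there. Whether its response differed between the times was not tested. Oasl1 and Oasl2 are neighbours on chromosome 5, and the copies of Oas1a in the mouse genome leave its count uncertain.

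Isg15 encodes a ubiquitin-like protein that is secreted and attached to other proteins. It had 603, 1242, 171 and 250 UMIs, or 62.1, 169, 30.6 and 32.6 CPM. IR 6 h stood above all other libraries, and the levels of the 1 week libraries lay within counting error of each other. The log2 fold was 1.45 (95% interval 1.31 to 1.59) at 6 h, 0.092 (95% interval -0.19 to 0.38) at 1 week and -1.02 (95% interval -1.27 to -0.77) between the shams. Usp18, the protease that removes Isg15 and dampens the receptor, stood at 23.5, 52.9, 8.95 and 16.2 CPM. It was higher at both times, with log2 folds of 1.17 (95% interval 0.93 to 1.41) and 0.85 (95% interval 0.37 to 1.36). Herc6, the mouse ligase that attaches Isg15, stood at 22.6, 25.1, 18.8 and 17.9 CPM and was not past 1.5-fold in any of the 3 comparisons.

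Among the membrane restriction factors, Bst2 and Ifitm3 were higher at both times. Bst2, or tetherin, holds budding virus at the cell surface, and its UMIs were 2342, 3485, 860 and 2173, or 241, 475, 154 and 284 CPM. Both irradiated libraries stood above both shams. The log2 fold was 0.98 (95% interval 0.90 to 1.06) at 6 h, 0.88 (95% interval 0.77 to 1.00) at 1 week and -0.65 (95% interval -0.76 to -0.53) between the shams.

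Ifitm3, which blocks the fusion of virus with endosomal membranes, had 1203, 2067, 152 and 464 UMIs, or 124, 282, 27.2 and 60.6 CPM. IR stood above SH at each time, and both 6 h libraries stood above both 1 week ones. The log2 fold with irradiation was 1.19 (95% interval 1.08 to 1.29) at 6 h and 1.15 (95% interval 0.89 to 1.43) at 1 week, on levels that differed between the shams by -2.19 (95% interval -2.44 to -1.94). Its neighbour Ifitm2 stood at 8.96, 15.4, 3.76 and 4.57 CPM, with a log2 fold of 0.78 at 6 h and 0.28 at 1 week. The Ifitm genes are paralogs, so reads can be shared between them.

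The other antiviral effectors differed among themselves. Rsad2, or viperin, which makes a chain-ending nucleotide, had 113, 289, 18 and 19 UMIs, or 11.6, 39.4, 3.22 and 2.48 CPM. It was high in IR 6 h and low in both 1 week libraries. Its log2 fold of 1.76 (95% interval 1.44 to 2.09) at 6 h was the largest of the 33 members. Without the 1% of cells with most member UMIs it was 2.44, on 34 UMIs in SH and 139 in IR. The cells left out held 69.9% of its UMIs in SH and 51.9% in IR, which by itself raises the fold. Cmpk2, a nucleotide kinase gene beside Rsad2 on chromosome 12, had 24, 46, 4 and 6 UMIs. Ifi44 had 14, 10, 0 and 1 UMIs, too few for a fold.

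Mx1, a dynamin-like GTPase, stood at 5.77, 9.14, 3.94 and 3.39 CPM and was higher at 6 h (0.66). The exonuclease gene Isg20 stood at 6.79, 11.7, 6.09 and 3.13 CPM. It was higher at 6 h, with a log2 fold of 0.79 (95% interval 0.31 to 1.27), and was the 1 member past 1.5-fold lower at 1 week, at -0.96 (95% interval -1.78 to -0.16). Its counts at 1 week were 34 UMIs in SH and 24 in IR.

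Ifi27l2a, a small interferon-induced membrane protein gene, stood at 95.4, 124, 23.5 and 68.8 CPM. SH 1 week stood apart at the low end. Its log2 fold was 0.38 (95% interval 0.24 to 0.51) at 6 h, under 1.5-fold, and 1.55 (95% interval 1.27 to 1.84) at 1 week. Rtp4, a chaperone of membrane receptors, stood at 102, 106, 40.6 and 63.6 CPM. Its log2 fold was 0.054 at 6 h, within counting error of 0, and was higher at 1 week, by a log2 fold of 0.65 (95% interval 0.41 to 0.88). Xaf1, an inhibitor of the survival protein XIAP, stood at 58.7, 77.1, 36.3 and 47.2 CPM and Ifi35 at 80.1, 110.5, 61.9 and 76.1 CPM, and neither was past 1.5-fold with irradiation at either time.

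Of the nuclear and PHD-finger, PARP and TRIM proteins, 3 of 5 were higher at 6 h and 0 of 5 at 1 week. Phf11b stood at 37.8, 72.1, 21.8 and 20.1 CPM, with a log2 fold of 0.93 (95% interval 0.74 to 1.13) at 6 h. Sp100, a part of nuclear bodies, stood at 26.9, 44.9, 15.2 and 17.4 CPM (0.74), and Phf11d at 39.2, 61.4, 22.4 and 25.8 CPM (0.65). These 3 were also the ones lower in the later sham. Trim30a stood at 90.5, 103, 75.9 and 84.2 CPM and Parp14 at 44.5, 44.3, 36.9 and 30.0 CPM, and neither was past 1.5-fold in any of the 3 comparisons. Phf11b, Phf11d and Trim30a each have close relatives nearby, which makes their counts uncertain.

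The Schlafens regulate growth and RNA in immune cells. Slfn2 had 1124, 1362, 379 and 896 UMIs, or 116, 186, 67.9 and 117 CPM. It was higher with irradiation at both times, by log2 folds of 0.68 (95% interval 0.57 to 0.80) and 0.79 (95% interval 0.61 to 0.96). Slfn5 stood at 11.4, 20.9, 2.15 and 5.61 CPM and was higher at both times too, by 0.87 (95% interval 0.51 to 1.23) and 1.39 (95% interval 0.44 to 2.44), the second on 12 and 43 UMIs. Slfn8 stood at 46.9, 45.7, 41.0 and 36.9 CPM and was within 1.5-fold in all 3 comparisons. The 3 genes lie within 1 family cluster on chromosome 11, and Slfn8 has a near copy.

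Irf7, Ifit3b, Usp18, Ifitm3, Bst2, Slfn2 and Slfn5 were thus past 1.5-fold higher at both times. For Ifit3b the counting interval at 1 week ran from -0.091 to 1.32, and its near-identical copy Ifit3, at 0.44, was not past the fold then. Oasl2, Rtp4 and Ifi27l2a were past it at 1 week and not at 6 h, and their log2 folds between the shams were -3.08, -1.32 and -2.02. Whether any response differed between the times was not tested.

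**Figure D2:**
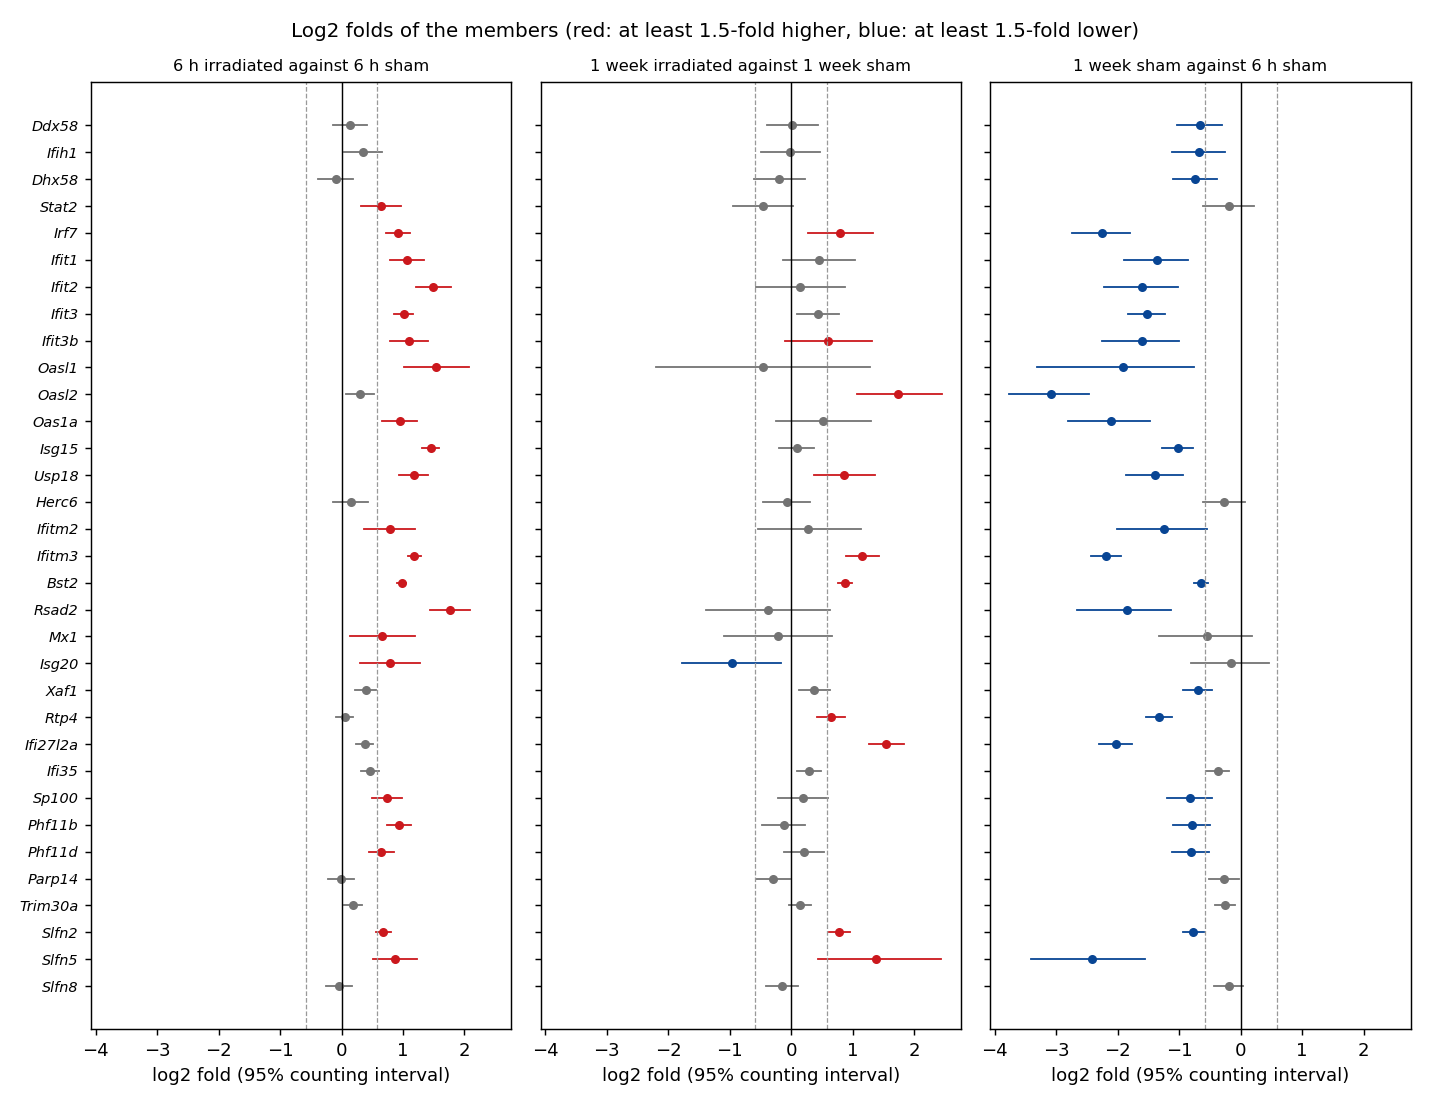
Log2 fold of each of the 33 members in the 3 comparisons, with the exact 95% counting interval as bars and dashed lines at 1.5-fold. At 6 h 21 members are red (higher), at 1 week 10 are red and Isg20 is blue (lower), and between the shams 25 are blue and all 33 points lie left of 0.

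The members' UMIs were unevenly spread over cells. To compare shares of cells, each cell was thinned to 2000 UMIs, which left out 481 shallower cells (93, 90, 189 and 109) and kept 7843. A UMI of at least 5 members was then found in 10.9%, 15.6%, 3.35% and 5.92% of the cells, with exact 95% intervals of 9.74 to 12.2%, 14.0 to 17.3%, 2.46 to 4.44% and 4.93 to 7.03%. Without thinning the shares were 19.1%, 26.2%, 8.77% and 14.7%. These cells held 56.7%, 68.3%, 28.3% and 32.2% of all member UMIs after thinning, and without thinning the cells with at least 5 members held 70.2%, 79.9%, 41.0% and 52.4%. At 6 h most member UMIs thus came from a minority of cells. For IR 1 week this depended on the definition, and in SH 1 week these cells held less than a majority both with and without thinning. No member UMI was found in 27.8%, 18.8%, 35.0% and 23.4% of the cells. With at least 10 members the shares of cells were 4.15%, 7.47%, 0.655% and 0.937%, and there the 2 libraries of 1 week had overlapping intervals.

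**Figure D3:**
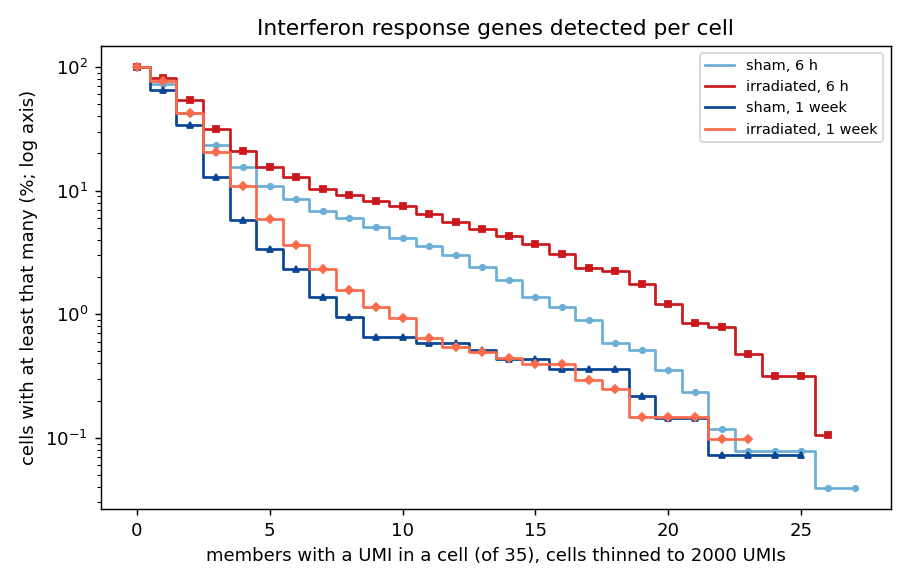
Share of cells, on a log axis, with a UMI of at least the given number of members, in cells thinned to 2000 UMIs, with 1 line per library. From 5 to 22 members the 6 h lines lie above the 1 week lines and irradiated lies above sham at 6 h, and the lines of 1 week lie close together from 11 members. The right ends of the lines stand for 1 or 2 cells.

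The few strongest cells weighed heavily. The 1% of cells with most member UMIs held 16.7%, 18.1%, 18.9% and 16.2% of the member UMIs, while the deepest 1% of cells held between 2.37% and 2.71% of all UMIs. Up to 417 member UMIs were found in 1 cell of IR 6 h and up to 162 in 1 cell of SH 1 week. Strong cells were present in the sham libraries as well.

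Members fell between 2 extremes, broad genes with UMIs in many cells and concentrated ones. Bst2, the broad extreme, was detected in 32.0%, 48.8%, 24.7% and 38.2% of thinned cells and Slfn2 in 17.6%, 24.9%, 10.6% and 18.7%. At the other end, Ifit3 was detected in 5.09%, 7.10%, 1.60% and 2.47% and Isg15 in 6.19%, 10.2%, 3.42% and 3.65%. Rsad2 was detected in 0.666%, 3.02%, 0.364% and 0.345%. These shares also follow the level of a gene, so they do not compare the spread of genes of unlike level, such as Bst2 and Rsad2. Genes of like level in IR 6 h differed too. Before thinning, Slfn2 (186 CPM) had 1.95 UMIs per cell with a UMI and Isg15 (169 CPM) 4.45. Ifi35 (110.5 CPM) had 1.41 and Ifit3 (119 CPM) 4.65, and they were detected in 16.9% and 7.10% of thinned cells. No other cell type was numerous enough in these libraries to give a background share from free RNA, so the shares are set against cells with few other members.

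In cells with fewer than 5 of the other members, Bst2 was still detected in 27.6%, 42.8%, 24.2% and 36.7%, against 74.8%, 86.5%, 42.5% and 72.9% of the cells with at least 5 others. Irradiated stood above sham at both times in these cells of few members. Slfn2 was detected in 14.1%, 19.1%, 9.46% and 17.3% of the cells with few others, with the same order of irradiated over sham. Ifit3 was nearly absent there, at 1.01%, 0.940%, 0.526% and 1.25%, against 38.9%, 40.8%, 34.1% and 22.8% in cells with at least 5 others. Those cells held 90.8%, 95.8%, 86.0% and 76.5% of the Ifit3 UMIs. Irf7 had 1.18%, 2.31%, 0.527% and 1.15% and 34.3%, 40.6%, 13% and 20.9% in the same order, and Ifitm3 4.80%, 7.69%, 2.10% and 3.29% and 49.6%, 65.9%, 33.3% and 36.0%. Cells with at least 5 others numbered 275, 292, 44 and 114 for Ifit3.

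Detection of one member went with detection of others in the same cell. Among the 130, 134, 22 and 50 thinned cells with an Ifit3 UMI, Isg15 was detected in 50.8%, 70.9%, 45.5% and 34.0%. Among cells without one it was detected in 3.80%, 5.53%, 2.74% and 2.88%. Irf7 was detected in 46.2%, 56.7%, 18.2% and 22.0% of cells with Ifit3 and in 2.52%, 4.45%, 0.666% and 1.77% of the others. The broad gene Trim30a was detected in 57.7%, 53.0%, 45.5% and 32.0% and 12.8%, 13.7%, 12% and 14.5%. Its higher share in cells without Ifit3 caps the ratio of the shares, so the ratios of broad and concentrated genes cannot be compared.

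Pearson correlations over cells, on log values per 10000 UMIs, describe the same pattern. The points are cells that share a library, and their depth differs. A pair of genes was linked when r was at least 0.1 in every library where both had a UMI in at least 20 cells, in at least 2 libraries. Free RNA and depth can add to r, and their part was not tested. Of the 528 measurable member pairs 305 were linked, or 57.8%, against 0.0181% of all gene pairs. The 33 measurable members formed 1 connected group, and Cmpk2 and Ifi44 could not be measured in 2 libraries. The median r of member pairs was 0.23, 0.29, 0.11 and 0.12, and 0.0010 to 0.0015 over all gene pairs. With the links set at 0.2 the group held 25 members, and without the 1% of cells with most member UMIs, chosen after seeing the data, it held 31 with 170 links.

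The IFIT genes were the core. All 6 of their pairs were linked, and among pairs measured in 3 libraries Ifit1 and Ifit3b had the highest value of the lowest r, 0.58. Rsad2 had 31 links and Oasl1 30, but both were measured only in the 6 h libraries and had to pass only there. Ifit2, measured in 3 libraries, had 30, and of those measured in all 4 Ifit3 had 27 and Isg15 25. Ifit3 and Isg15, both measured in all 4 libraries, had r of 0.62, 0.75, 0.54 and 0.40. Ifit3 and Usp18 had 0.59, 0.71, 0.50 and 0.40.

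The RNA sensors were not linked with one another, in any of their 3 pairs. They were measured in all 4 libraries and had to pass in each. Ddx58 and Dhx58 had r of 0.13, 0.13, 4.8e-05 and 0.021, and Ddx58 and Ifih1 0.049, 0.11, 0.014 and 0.038. Ifih1 and Dhx58 had 0.076, 0.12, 0.040 and 0.036. With Ifit3, r was 0.23, 0.29, 0.17 and 0.084 for Ddx58 and 0.22, 0.28, 0.16 and 0.091 for Ifih1. Few links thus do not show a low r in every library. Ddx58 had 3 links and Ifih1 4, while Dhx58 had 12. Stat2 had 4 links. Ifitm2 had 1, with its neighbour Ifitm3, at a lowest r of 0.14. Bst2, the broad gene, had 13 links, and its r with Ifit3 was 0.34, 0.40, 0.15 and 0.19. Thinned to 2000 UMIs, the group held 30 members, without Ifih1, Stat2 and Rsad2. Rsad2 then had a UMI in 17, 57, 5 and 7 cells and reached the minimum of 20 cells only in IR 6 h. Its links could therefore not be measured after thinning, and its absence there does not show a low r.

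**Figure D4:**
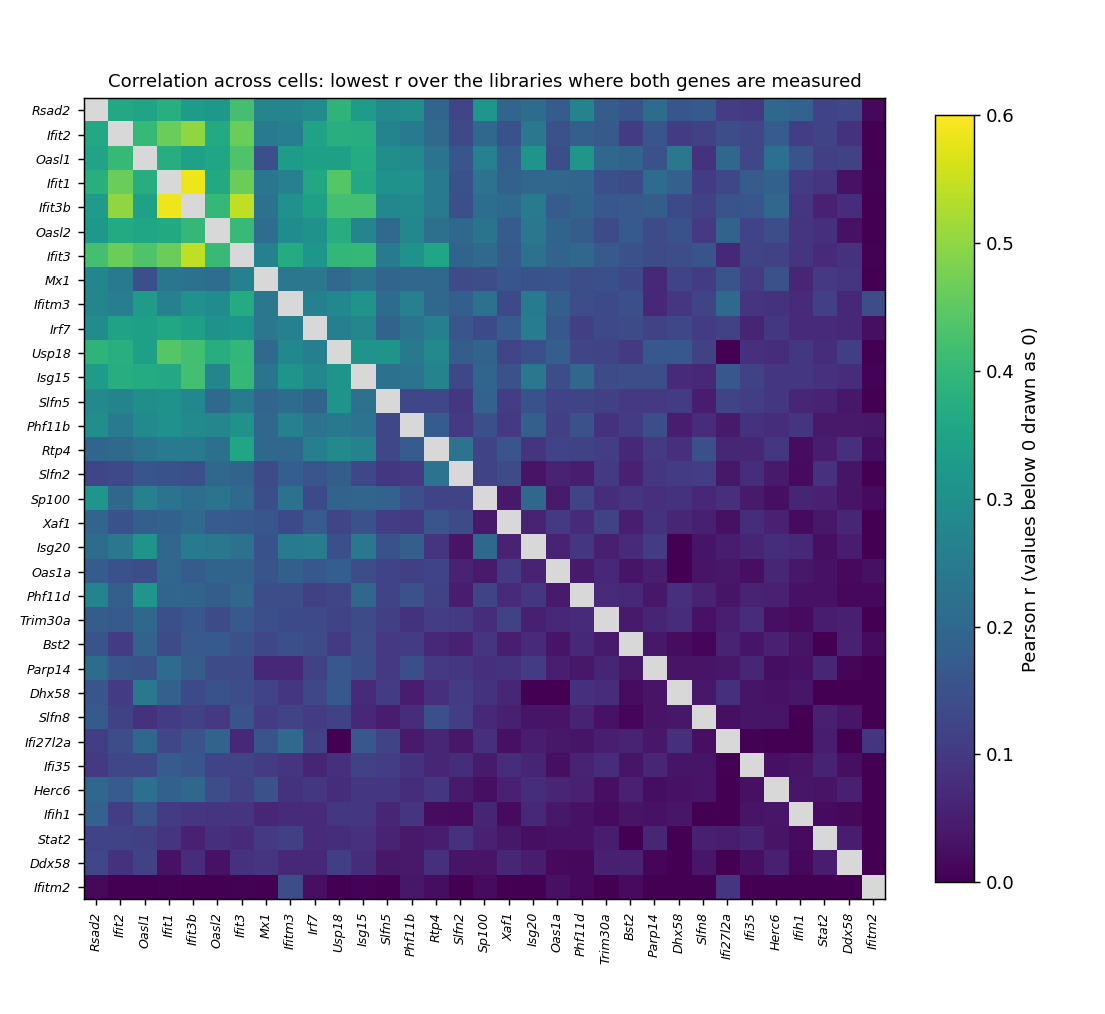
Pearson correlation across cells for each pair of the 33 measurable members, drawn as the lowest r over the libraries where both were measured. Members are ordered by their number of links and then by name. The IFIT, OAS-like, Usp18 and Isg15 genes form the bright corner, and Ifitm2, Ddx58, Stat2 and Ifih1 lie in the dark rows with few links.

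Genes outside the list that followed the members most closely were found by the r of each gene with the summed members, taken at its lowest over the 4 libraries. The first was Ifi204, a DNA sensor of the HIN-200 family, at 0.26. Lgals3bp stood at 0.17. Ly6a, Irf9, the chemokine gene Ccl12, Gbp2, Trim30d, Plac8 and BC147527 were lower on that ranking, with values from 0.11 to 0.12. The median over the 9287 genes compared was -0.021. In sparse counts such values are weak, and they are given as a ranking only.

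The ligands and receptors of the pathway were examined from a fixed list of other pathway genes. Of the 18 type I ligand genes, Ifnb1 had 8, 1, 0 and 0 UMIs and Ifnz 2, 1, 0 and 0, and the other 16 had none in any library. The 8 Ifnb1 UMIs of SH 6 h lay in 3 cells, in which 11, 32 and 32 members were detected, and 6 of them in a cell with 32. In the 1 cell of IR 6 h with an Ifnb1 UMI, 2 members were detected. The receptor genes stood at 61.6, 71.3, 48.5 and 55.9 CPM for Ifnar1 and 216, 166, 247 and 214 CPM for Ifnar2, and none of the 4 interferon receptor genes was past 1.5-fold in any of the 3 comparisons. Of Jak1, Jak2, Tyk2 and Irf9, none was past it with irradiation.

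Of the 44 measured interferon targets on that list of other genes, 10 were higher and 3 lower at 6 h, beside 8.45% and 9.37% of all genes. At 1 week 5 were higher and 3 lower, beside 4.2% and 3.55%, and in the later sham 1 was higher and 9 lower, beside 3.07% and 5.05%. Their median log2 fold at 6 h was 0.051, beside 0.74 for the members. Ifi204 stood at 32.2, 66.8, 10.6 and 10.8 CPM, with 1.05 (95% interval 0.84 to 1.26) at 6 h. Zbp1, a sensor of Z-form nucleic acid, stood at 8.34, 24.5, 2.51 and 5.35 CPM, higher at 6 h (1.56) and at 1 week (1.09). Tap1, the peptide transporter of antigen presentation, stood at 53.2, 108, 43.1 and 74.9 CPM and was higher at both times (1.02 and 0.80).

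Rnf213, a large ubiquitin ligase gene, stood at 14.5, 26.9, 6.45 and 10.2 CPM, with 0.89 and 0.66. The GTPase genes Gbp2 and Iigp1 were higher at 6 h, by 1.67 and 1.81, and Ms4a4c by 1.49. Samd9l was lower in the later sham (-0.95). The chemokine gene Cxcl10 had its own order, 19.8, 76.6, 31.9 and 13.1 CPM, higher at 6 h, with a log2 fold of 1.96 (95% interval 1.72 to 2.20), and lower at 1 week, with -1.29 (95% interval -1.66 to -0.93). Phf11a, a relative of the Phf11 members, was higher at 6 h (1.88). With 10 and 7 UMIs at 1 week, a difference was not detectable there at this depth.

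Markers of other cell types were measured beside the members. Summed monocyte markers (all 6 of the list were in the matrices) stood at 32.9, 32.2, 8.77 and 12.8 CPM, with Ly6c2 at 0 in every library, and most of these UMIs were Plac8, one of the genes that followed the members. Without Plac8 the list stood at 4.43, 6.68, 2.69 and 5.48 CPM. Border macrophage markers stood at 44.9, 45.0, 20.2 and 24.5 CPM, and the 6 neutrophil markers were at 0 in all libraries. The 5 plasmacytoid dendritic cell markers found summed to 5.35, 6.41, 5.55 and 4.31 CPM, nearly all of it Cox6a2, with Klk1, Ly6d and Dntt at 0 in every library. A marker gate kept cells with at least 4 microglia markers and under 3 UMIs of each list of another cell type. It left the erythroid list out and kept 98.2% of cells. In these cells all of the 21, 10 and 25 members remained past the fold, and Rsad2 joined those lower at 1 week, at -0.91. The part of these markers in the members' values was not tested. P2ry12, the purine receptor that marks resting microglia, was detected in 74.8% of the thinned IR 6 h cells with at least 5 members and in 94.4% of the others there, and in 98.9% and 99.6% in SH 6 h.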

How the data were processed

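Single-cell RNA was measured in 4 libraries, 1 per group. The values deposited by the authors are raw UMI counts for each gene in each barcode, from Cell Ranger 2.0 on mm10, per the submitters' processing notes. Neither the rule for calling barcodes nor the gene annotation is named there. Groups were taken from the labels. Barcodes with at least 1000 UMIs, 500 genes and at most 10% mitochondrial UMIs were kept (117 removed), and Scrublet in scanpy 1.11.5 at an expected rate of 0.06 removed 45 doublets (0.538% of 8369), so doublets can remain. The design text states 8095 cells, and 8324 were kept. UMIs were summed per library and scaled to CPM. Levels have exact Poisson intervals, folds exact conditional binomial 95% intervals and shares of cells Clopper-Pearson intervals, all computed with scipy 1.17.1. Only the fold intervals were checked on simulated data. The simulated counts were Poisson, so the check cannot show how the intervals behave where UMIs sit in few cells. A count of 0 was put at 3 counts where a fold was formed. Gene positions came from GENCODE vM21 on GRCm38 and upstream sequences from RefSeq (GRCm38.p6).

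The members and the gene lists were chosen with earlier results of these data known. Every member is accounted for. Results for some other genes are not reported here. Other pathway genes are named if they are receptor, kinase, STAT or IRF9 genes or have 1 of the 10 largest folds, and genes outside the list if they are among the 10 that follow the members most closely. Of 115 other pathway genes 110 were matched. Alternatives covered cell filters, doublets, a marker gate, scaling, count filters, the fold, the sham used and the strongest cells.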

Additional observations from a re-analysis of the deposited data

Results flagged for a closer look

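Of the pathway, 3 genes had values past 1.5-fold in opposite directions after irradiation at the 2 times, and the difference between the times was not tested. Cxcl10 had a log2 fold of 1.96 at 6 h and -1.29 at 1 week. Phf11a had 1.88 at 6 h and -0.97 at 1 week, but the second rests on 10 and 7 UMIs, where a difference is not detectable: its 95% counting interval is -2.60 to 0.57. Of the members, Isg20 had 0.79 at 6 h and -0.96 at 1 week, and its levels were 6.79, 11.7, 6.09 and 3.13 CPM in SH 6 h, IR 6 h, SH 1 week and IR 1 week. Each value compares 1 library with 1 library.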

How the results depend on the processing

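No paired analysis was possible because each group is 1 library. At a 2-fold threshold 9 members were higher at 6 h, 4 higher and 0 lower at 1 week, and 16 lower between the shams. Against the sham of the other time, the median at 6 h was 1.63, and at 1 week 0 members were higher, 23 were lower and the median was -0.76. In that setting the direction at 1 week turned for Irf7 (-1.46), Ifit3b (-1.01), Oasl2 (-1.35), Usp18 (-0.54), Ifitm3 (-1.03), Rtp4 (-0.68), Ifi27l2a (-0.47) and Slfn5 (-1.03), because the sham libraries differ. The members lower at 1 week numbered 2 in the marker gate, where Rsad2 joined at -0.91. They numbered 2 without the 1% of cells with most member UMIs, where Mx1 joined at -0.80, on 14 UMIs in SH and 11 in IR. With a minimum of 400 UMIs, which Isg20 does not reach, they numbered 0. The share of cells with at least 5 members depends on its definition. It was 23.5%, 31.3%, 12.9% and 20.7% with at least 3 members, 5.99%, 9.16%, 0.946% and 1.58% with at least 8, and 19.1%, 26.2%, 8.77% and 14.7% without thinning, in SH 6 h, IR 6 h, SH 1 week and IR 1 week, and the order of the libraries was the same each time. The other 96 values of the main counts, medians, shares and group sizes stayed within their limits. Of single members' folds, 679 stayed and 72 moved, and 8 of those past 1.5-fold turned, the 8 named above. Of all 33 members, 13 kept their sign at 1 week against the sham of the other time. With equal weight for each cell, 18 of the 21 members at 6 h were still past 1.5-fold. Depth limits members with under about 10 UMIs per library, such as Oasl1 at 1 week.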

Other observations

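Ccl12, a chemokine that attracts monocytes, was among the genes that followed the members and had far more UMIs, 3394, 9614, 1670 and 5030 in SH 6 h, IR 6 h, SH 1 week and IR 1 week, or 349, 1311, 299 and 656 CPM. Its r with the summed members over cells was 0.29, 0.35, 0.12 and 0.13. Lgals3bp, a secreted glycoprotein, stood at 200.1, 264, 151 and 201 CPM, with r of 0.39, 0.48, 0.17 and 0.31. Both had the larger CPM in the irradiated library at each time, but the difference of Lgals3bp was under 1.5-fold at both times.

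Plac8 was detected in 16.1% of the SH 6 h cells with at least 5 members and in 1.76% of the other cells there. In IR 6 h, SH 1 week and IR 1 week Plac8 was detected in 10.9%, 8.70% and 5.83% of such cells. The other 5 monocyte markers together were detected in 0.717%, 2.72%, 0% and 0.833% of the cells with at least 5 members, which were 2, 8, 0 and 1 cells, and in 0.572%, 0.627%, 0.602% and 1.10% of the others. The share was thus higher in cells with at least 5 members in IR 6 h. Pericyte markers stood at 17.1, 0.545, 0 and 0.261 CPM, almost all in SH 6 h, and erythroid markers at 2.37, 0.136, 0 and 0 CPM. Their part in the members' values was not tested. The marker gate limited pericyte markers but not erythroid ones, and the 21, 10 and 25 members past 1.5-fold remained past it there.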
